A study of Homo sapiens with 18 samples.

Results

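The genes of the cytosolic ribosomal proteins, 86 of the 20033 protein-coding genes of GENCODE release 44 on hg38, were followed through the lists of enriched DNA windows of an R-loop study in MCF10A cells. They were chosen by name alone: RPL or RPS with a number, together with RPSA, RPLP0, RPLP1 and RPLP2, and without the RPS6K kinases. Of these, 52 encode large subunit proteins and 34 small subunit proteins, and 9 are paralogs of another member (RPL3L, RPL7L1, RPL10L, RPL22L1, RPL26L1, RPL39L, RPS27L, RPS4Y1 and RPS4Y2). The choice used no measured value, but was made with earlier results of these data known.

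MCF10A is an established line of non-tumorigenic human mammary epithelial cells, grown with EGF, hydrocortisone, cholera toxin and insulin. DNA-RNA immunoprecipitation sequencing (DRIP-seq), in which the S9.6 antibody pulls down DNA carrying RNA-DNA hybrids, was done in wild-type (WT) cells and in APOBEC3B knockout cells (A3B KO), each given vehicle (DMSO) or the phorbol ester PMA, an activator of protein kinase C, at 25 ng/ml for 2 h or 6 h. The knockout line was made from WT by 1 guide RNA that cuts both APOBEC3A and APOBEC3B and leaves a fused gene, so it carries a deletion between the cut sites, and it is 1 clone grown from a single cell. Separately, chromatin of MCF10A-TREx-A3B-eGFP cells, in which doxycycline drives eGFP-tagged APOBEC3B (A3B-eGFP), a nuclear DNA cytosine deaminase, was precipitated with an anti-GFP antibody without doxycycline in DMSO (Dox- DMSO), with doxycycline at 1 µg/ml for 24 h in DMSO (Dox+ DMSO), and with doxycycline and PMA for 2 h (Dox+ PMA 2 h); these cells still hold their own APOBEC3B gene. Each of the 9 conditions is 1 list from 1 library (for DRIP-seq, of pooled S9.6 precipitations), so there are no replicates, no test was possible, and every difference below compares lists and not conditions. The lists hold 500 bp windows around peak summits, 91894 to 169126 for DRIP-seq and 4040 to 7122 for A3B-eGFP, each with a pileup (fragments over the summit) and a fold enrichment, and the reads per library are unknown. The APOBEC3B gene held 0, 1 and 2 DRIP windows in WT (DMSO, PMA 2 h, PMA 6 h) and 0 in each A3B KO list, so WT DMSO and A3B KO DMSO cannot be told apart there.

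Every ribosome is built from ribosomal RNA and a near-fixed set of ribosomal proteins, and their genes are short, intron-containing and among the most strongly transcribed by RNA polymerase II in growing cells. Their mRNAs begin with a cytidine followed by a run of pyrimidines, the 5′ terminal oligopyrimidine (TOP) tract, through which mTOR signalling sets their translation. An R-loop forms when new RNA pairs back with its template strand and leaves the other DNA strand single. Such structures are known to be favoured where that strand is rich in G, as it often is downstream of a start.

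Promoter letters of members on which the results below turn are shown first. RPS12, RPL22L1 and RPS23 held some of the highest DRIP windows. RPS21, RPL35 and RPL26 had the largest proportional falls in rank at PMA 2 h in WT. Each run covers 120 bases before to 30 bases after the RefSeq start (GRCh38.p14), written 5′ to 3′ on the coding strand, with the pyrimidine run that holds the start in capitals.
RPS12 (chr6:132814449-132814598, plus strand): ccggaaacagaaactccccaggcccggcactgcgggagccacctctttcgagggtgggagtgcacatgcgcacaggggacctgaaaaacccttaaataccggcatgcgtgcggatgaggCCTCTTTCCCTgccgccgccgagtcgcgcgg
RPL22L1 (chr3:170870166-170870315, minus strand): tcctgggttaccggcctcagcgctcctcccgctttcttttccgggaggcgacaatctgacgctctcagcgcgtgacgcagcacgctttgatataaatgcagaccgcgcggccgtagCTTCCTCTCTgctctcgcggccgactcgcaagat
RPS23 (chr5:82278325-82278474, minus strand): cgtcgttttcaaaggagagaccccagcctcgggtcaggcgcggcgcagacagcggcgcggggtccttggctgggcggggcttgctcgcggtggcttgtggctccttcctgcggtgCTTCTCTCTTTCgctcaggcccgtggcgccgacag
RPS21 (chr20:62386983-62387132, plus strand): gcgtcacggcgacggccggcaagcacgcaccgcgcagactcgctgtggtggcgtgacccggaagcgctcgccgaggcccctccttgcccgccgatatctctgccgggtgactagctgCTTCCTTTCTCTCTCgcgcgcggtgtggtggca
RPL35 (chr9:124861928-124862077, minus strand): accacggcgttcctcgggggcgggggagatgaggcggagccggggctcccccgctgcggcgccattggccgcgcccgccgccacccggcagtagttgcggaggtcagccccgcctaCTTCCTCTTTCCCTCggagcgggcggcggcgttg
RPL26 (chr17:8383164-8383313, minus strand): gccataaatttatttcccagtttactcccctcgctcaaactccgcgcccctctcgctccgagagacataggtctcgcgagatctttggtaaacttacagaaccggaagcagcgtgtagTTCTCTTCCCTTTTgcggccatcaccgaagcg

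The capitals span 10 to 15 letters in these genes. Over the 69 of 86 members found in the RefSeq promoter table, 44 had C followed by 4 pyrimidines at the start (63.8%), against 4.65% of all 15345 protein-coding promoters. A pyrimidine run of at least 8 letters also lay at 44 of the 69 starts (63.8%), against 7.33% of all. Large and small subunit members resembled each other here, at 26 of 42 (61.9%) and 18 of 27 (66.7%). Among letter motifs sought in the 300 bases around the start (250 before to 50 after), CCGGAA, the core of ETS factor sites, on either strand, was in 38 member promoters (55.1%) and 23.1% of all, and was the motif with the widest gap. CTTTCC and CTTTTC, on the coding strand, were in 36.2% and 27.5% of members against 14.5% and 10.5%. Such a match can lie within the pyrimidine run itself, as CTTTCC does in RPS12 and RPL35, or outside it, as CTTTTC does in RPL22L1. How many matches lay within the run was not counted. AAGATGGC, on either strand, was in 10.1% against 3.97%. The other letters were as common or less so in members, GGGCGG in 52.2% against 59.2%, TATAAA in 10.1% against 9.63% and CACGTG, the E-box bound by MYC, in 5.80% against 8.89%, all on either strand. A match describes letters and shows no bound factor.

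The letters under the DRIP summits of 3 members follow, read from hg38 on the coding strand, with runs of 3 or more G in capitals. RPS12 had the highest fold of all members, RPL22L1 the next in WT DMSO with its summit far into the gene, and RPL17 one within its first intron; all 3 stretches are intronic, and that of RPS12 was shortened to leave out exon letters.
RPS12 (chr6:132814783-132814878, plus strand): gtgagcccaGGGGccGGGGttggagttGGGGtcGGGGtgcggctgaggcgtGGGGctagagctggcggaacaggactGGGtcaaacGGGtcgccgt
RPL22L1 (chr3:170867228-170867377, minus strand): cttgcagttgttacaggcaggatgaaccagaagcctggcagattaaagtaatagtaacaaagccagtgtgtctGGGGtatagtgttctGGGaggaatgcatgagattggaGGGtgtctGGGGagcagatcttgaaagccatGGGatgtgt
RPL17 (chr18:49491957-49492106, minus strand): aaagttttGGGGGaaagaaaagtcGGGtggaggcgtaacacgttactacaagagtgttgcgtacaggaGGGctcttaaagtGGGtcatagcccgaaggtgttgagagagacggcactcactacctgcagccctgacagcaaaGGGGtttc

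RPS12 has 49 G against 19 C in its 96 letters, with 7 such G runs. RPL22L1 has 52 G against 20 C and 5 runs in 150 letters, and RPL17 50 against 28 and 5 runs. The summits lie 234, 2893 and 434 bp after the starts of the canonical transcripts.

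Nearly every member held DRIP signal. A gene was counted when a window had its midpoint in the gene or within 2 kb of its start. In WT, 82, 80 and 82 of the 86 members had a window in DMSO, PMA 2 h and PMA 6 h, where 69.9%, 70.6% and 77.4% of all protein-coding genes did. In A3B KO the counts were also 82, 80 and 82, against 71.6%, 73.2% and 76.9%. A window was present in all 6 lists for 77 members. RPL10L, a testis-expressed paralog, and RPS4Y1 and RPS4Y2, which lie on chromosome Y, had none in any list. Of the other 6, RPL35A had a window in the 3 WT lists and in no A3B KO list, and RPL21 in 3 lists (WT PMA 6 h, A3B KO DMSO and A3B KO PMA 6 h). The remaining 4, RPL7, RPL9 and RPLP1 among them, each missed 1 list; RPL21 and RPL35A are named here after their values were seen. Several of these are genes with many processed copies in the genome, and how reads with several matches were treated is not given in the sources used here.

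The height of the windows set the members apart more than their presence. A gene's value in a list is the highest fold enrichment among its windows. In WT the members' median was 17.4 in DMSO, 10.1 at PMA 2 h and 12.2 at PMA 6 h, against 5.94, 6.52 and 7.99 over all protein-coding genes with a window. In A3B KO it was 17.3, 9.80 and 13.9, against 5.94, 7.16 and 7.09. Fold enrichments depend on the depth of each library, so changes were read from places: all genes of a list were ranked by this value, place 1 being the highest. The members' median place corresponded to the top 1.94%, 9.38% and 8.65% of ranked genes in WT and the top 1.92%, 17.5% and 2.76% in A3B KO. Per 10 kb of gene, members held 3.06 windows in WT DMSO and all genes 0.456. The median transcript span was 4748 bp in members and 22913 bp in all genes.

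**Figure D1:**
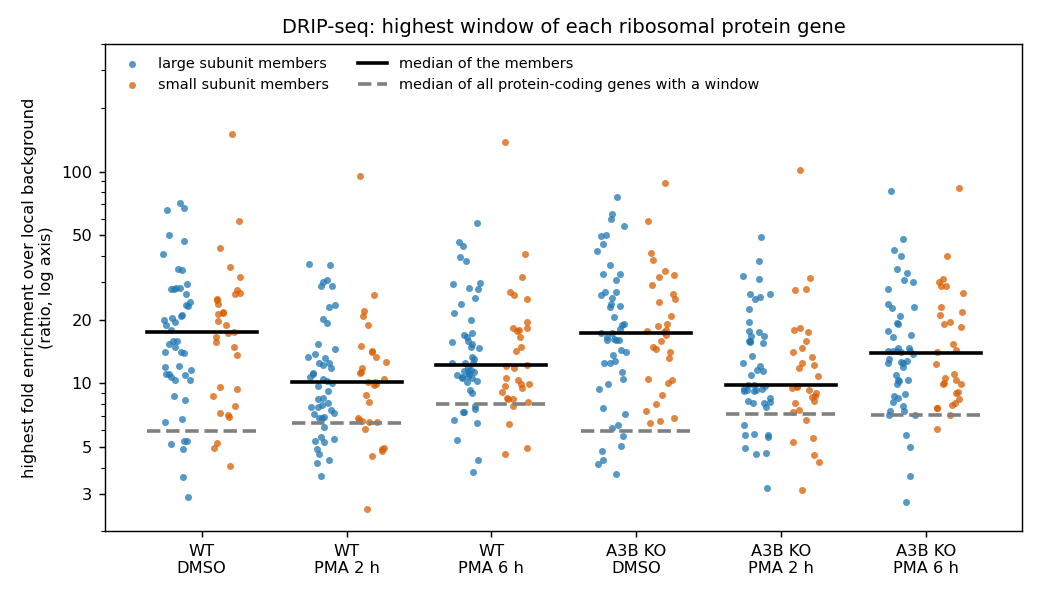
Highest fold enrichment of each member's windows (log axis) in the 6 DRIP-seq lists, with large and small subunit members as separate points and the median of all protein-coding genes for comparison. The medians of members were 17.4, 10.1 and 12.2 in WT and 17.3, 9.80 and 13.9 in A3B KO, and RPS12 was the highest point in each list.

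A few members stayed at the top in every list. RPS12, a small subunit protein, had highest folds of 151, 95.3 and 138 in WT DMSO, PMA 2 h and PMA 6 h and 88.7, 102 and 83.7 in the same order in A3B KO. Its window also lies within the SLC18B1 gene's reach, whose start is within 2 kb, and the pair tied for the first place in all 3 WT lists. RPL15, a large subunit protein, had 65.7, 36.5 and 57.1 in WT and 75.5, 49.0 and 80.7 in A3B KO. RPL15 was thus lowest at PMA 2 h in both lines. RPL17, whose window is shared with the readthrough gene RPL17-C18orf32, had 67.1, 30.7 and 46.3 in WT and 63.3, 32.2 and 40.0 in A3B KO. RPL22L1, the paralog of RPL22, had 70.8, 30.1 and 44.7 in WT and 42.3, 31.0 and 42.8 in A3B KO. It was the highest of the paralogs. RPS23, a protein of the decoding centre, had 58.4, 21.9 and 40.9 in WT and 58.4, 31.5 and 28.8 in A3B KO. RPL4 (46.9, 23.4 and 37.6, then 49.9, 25.1 and 47.8), RPL27A (40.7, 36.1 and 27.9, then 59.9, 37.8 and 34.7) and RPSA, also the laminin receptor (43.7, 26.2 and 31.7, then 41.1, 27.5 and 39.8), completed the 8 best median places. By fold, PMA 2 h was the lowest of the line in most of these genes. The exceptions, lowest at PMA 6 h, were RPL27A in WT and RPS12, RPS23 and RPL27A in A3B KO. By place, PMA 2 h was the lowest of the A3B KO line in these exceptions too. Their A3B KO places in DMSO, PMA 2 h and PMA 6 h were 2.5, 6.5 and 2.5 (RPS12), 18.5, 98.5 and 64 (RPS23) and 17, 78 and 49 (RPL27A).

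Of the 20 highest members in each list, 14 were common to all 6: the 8 above with RPL19, RPL31, RPL37, RPL41, RPS14 and RPS27. WT DMSO and A3B KO DMSO shared 18 of their 20, and the least similar pair of lists 14. RPL5 and RPL11, which join 5S rRNA in a particle that also restrains MDM2, were close to each other in DMSO, at 29.4 and 26.4 in WT and 26.2 and 26.9 in A3B KO. After PMA 2 h they had 12.5 and 14.5 in WT and 17.4 and 12.4 in A3B KO, and after 6 h 15.8 and 14.7, then 22.8 and 19.1. The stalk proteins, which recruit elongation factors to the ribosome, were lower. RPLP0 had 11.1, 6.90 and 12.5 in WT and 16.1, 9.32 and 12.5 in A3B KO. RPLP2 had 8.69, 4.21 and 6.49 in WT and 7.63, 5.68 and 5.01 in A3B KO, and RPLP1 had 5.36, no window and 6.72 in WT and 9.40, 3.21 and 7.10 in A3B KO. RPS27A, made as a fusion with ubiquitin, was low throughout, from 4.09 in WT DMSO to 7.66 in A3B KO PMA 6 h. RPS14 and RPS19, whose loss of 1 copy is known from marrow failure syndromes, had 27.5 and 25.0 in WT DMSO.

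**Figure D2:**
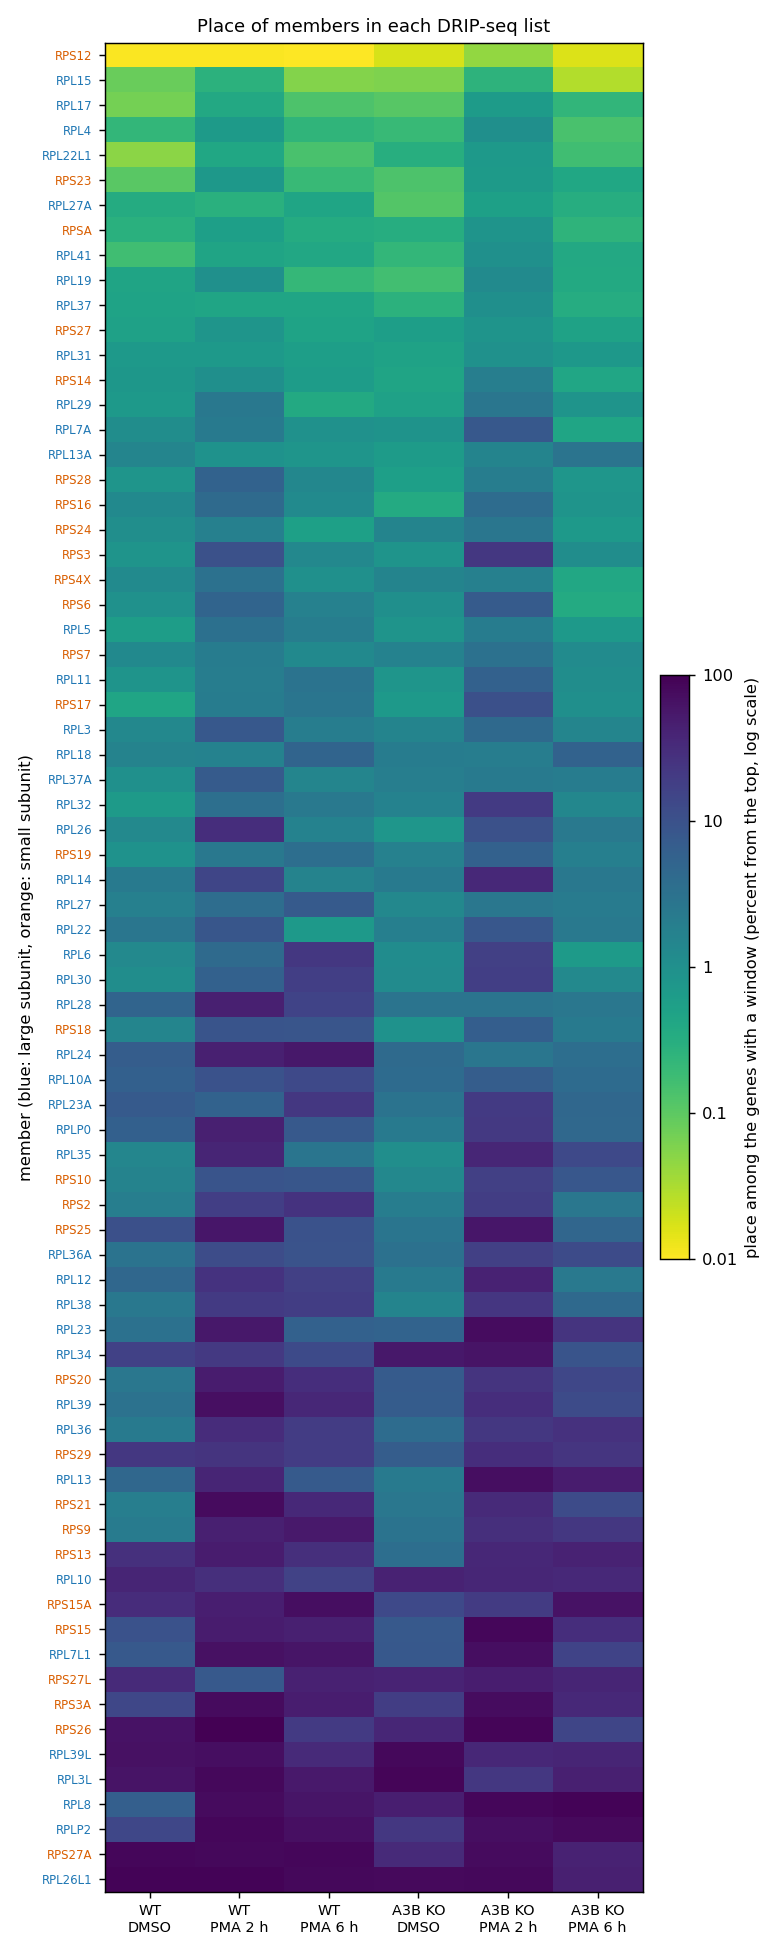
Place in each of the 6 DRIP-seq lists, as a percent of the genes ranked in that list (log colour scale), with 74 of the 77 members that had a window in all 6 lists as rows, ordered by median place. RPS12, RPL15 and RPL17 head the rows, and the PMA 2 h columns are darker (lower places) than the DMSO columns; over all members 41 in WT and 37 in A3B KO were in the first 10% at PMA 2 h, and 63 and 66 in DMSO.

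After PMA for 2 h, most members fell in the ranking in both lines. The change of a member is the log2 of its place in the reference list over its place in the other, both counted among the genes with a window in both lists: -1 means that its place number doubled, and changes of at least that size are called fell or rose. In WT, 53 of 80 ranked members fell and 1 rose, with a median of -1.87, while of all 12647 genes 16.9% fell and 18.0% rose. In A3B KO, 59 of 80 fell and 2 rose, with a median of -2.15, against 16.3% and 16.7% of all 13233. In both lines 46 of the 78 members ranked in each fell, against 7.59% of all 11722 genes, and 64 were lower, against 27.8%. RPL10 was the only member that was higher in both, by 0.40 and 0.15, against 30.2% of all genes. A place also falls when other genes rise, and fewer cells with a hybrid and fewer hybrids per cell cannot be told apart here.

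Genes near the top have more room to fall, so the members were also set beside the other genes in the first 10% of each DMSO list, a comparison added after the data were seen. In WT, 49 of 62 such members fell (79.0%) against 64.6% of 1203 other genes. In A3B KO, 53 of 65 fell (81.5%) against 60.7% of 1258. Both sets were picked as high in the list from which the fall is counted, which by itself favours falls: over the 9 pairs of lists, 37.5% to 67.4% of such other genes fell. The gap between members and other high genes at 2 h was narrower than that between members and all genes, and was not tested. Places within the first 10% were not matched, so this gap cannot be read as one between genes with equal room to fall. The median place of all members with a window was in the top 1.94% for WT DMSO. For the knockout DMSO list it was in the top 1.92%.

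RPS21 had the largest log2 change at 2 h in WT. Its highest fold was 17.3 in DMSO, 4.93 at PMA 2 h and 9.11 at 6 h, and its place went from 271 to 9947 of 12647 between the first pair, a change of -5.20. In A3B KO it had 14.8, 8.25 and 10.4, with a change of -3.69 at 2 h. RPL35 had 19.9, 7.26 and 14.9 in WT and 23.7, 8.06 and 10.3 in A3B KO, with 2 h changes of -4.68 and -5.10. RPL35 fell in both lines at 2 h and had regained more places in WT than in A3B KO by 6 h. RPL26, a 60S protein known to bind p53 mRNA, had 20.9, 7.77 and 16.6 in WT and 27.1, 10.9 and 14.3 in A3B KO, with 2 h changes of -4.50 and -3.69. RPL39, at the peptide exit tunnel, changed by -4.39 in WT, from 14.0 to 5.46. Among the next in A3B KO were RPL13 (-4.90), RPS3 (-4.73), a protein at the mRNA entry that also acts in DNA repair, and RPS25 (-4.32). Of the members that rose, 1 in WT and 2 in A3B KO, each was a paralog: RPS27L, a p53-induced relative of RPS27, by 2.11 in WT, RPL3L, the striated muscle form of RPL3, by 1.91 in A3B KO, and RPL39L, the germ cell form of RPL39, by 1.17. Over the 6 ranked paralogs the 2 h medians were -0.24 in WT and -0.14 in A3B KO, and over the other 74 members -1.94 and -2.18. The median place in WT DMSO was 6676 for the paralogs and 243 for the others, so the paralogs had less room to fall. RPL22L1, high in DMSO, fell by 3.05 in WT and by 1.20 in A3B KO.

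**Figure D3:**
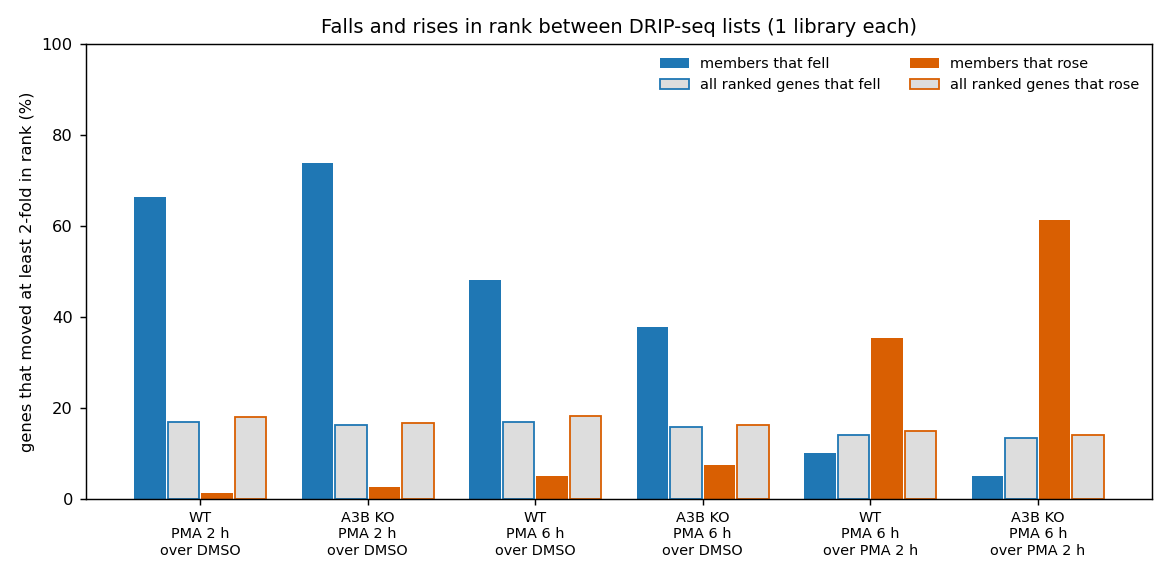
Percent of genes that fell or rose at least 2-fold in place in each DRIP-seq pair within a line, as bars from 0 for the members (filled) and for all genes ranked in both lists (grey). At PMA 2 h over DMSO the bars of members that fell are 66.3% in WT and 73.8% in A3B KO, and at 6 h over 2 h the bars of members that rose are 35.4% and 61.3%.

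Fewer members were below their DMSO places at 6 h than at 2 h. Against the same DMSO lists, 39 of 81 members fell and 4 rose in WT, median -0.96, against 16.9% and 18.3% of all genes. In A3B KO 31 of 82 fell and 6 rose, median -0.64, against 15.7% and 16.1%. Members high in DMSO, by the cut used in the 2 h comparison, fell less often than other high genes. In WT, 35 of 62 such members fell (56.5%, median -1.18) against 67.4% of 1262 other high genes (median -2.19). In A3B KO, 27 of 65 fell (41.5%, median -0.70) against 57.4% of 1302 (median -1.36). These gaps were not tested. In WT the median place itself was 1327 of 14146 at 2 h and 1341 of 15498 at 6 h. Among the members that fell most in WT were RPS9 (-4.66), RPL6 (-4.21), RPS21 (-4.21) and RPL30 (-4.15). In A3B KO they included RPL13 (-4.49), RPL35 (-3.68), RPS13 (-3.59) and RPS9 (-2.98). RPS26, which binds mRNA at the exit channel, was the only member that rose in both lines, by 1.51 in WT and 1.26 in A3B KO, against 5.97% of all genes. The other members that rose were RPL22 (1.82), RPL7 (1.48) and RPL10 in WT and RPL34 (2.54), RPS4X (1.87), RPS6 (1.37), RPS24 (1.05) and RPL39L (1.00) in A3B KO.

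Between 2 h and 6 h more members rose than fell in each line. In WT, 28 of 79 rose and 8 fell, median 0.58, against 14.9% and 14.1% of all genes. In A3B KO, 49 of 80 rose and 4 fell, median 1.39, against 14.1% and 13.4%. In both lines 23 of 77 members rose, against 4.25% of all 12634 genes, among them RPL14, RPL15, RPL22, RPL26, RPL35, RPS3 and RPS6. In both lines 2 fell, RPL18 among them, against 4.16%. The largest gains in WT were RPL26 (4.02), RPL35 (3.64) and RPL22 (3.50), and in A3B KO RPL6 (4.66), RPS3 (4.27) and RPS6 (4.20).

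**Figure D4:**
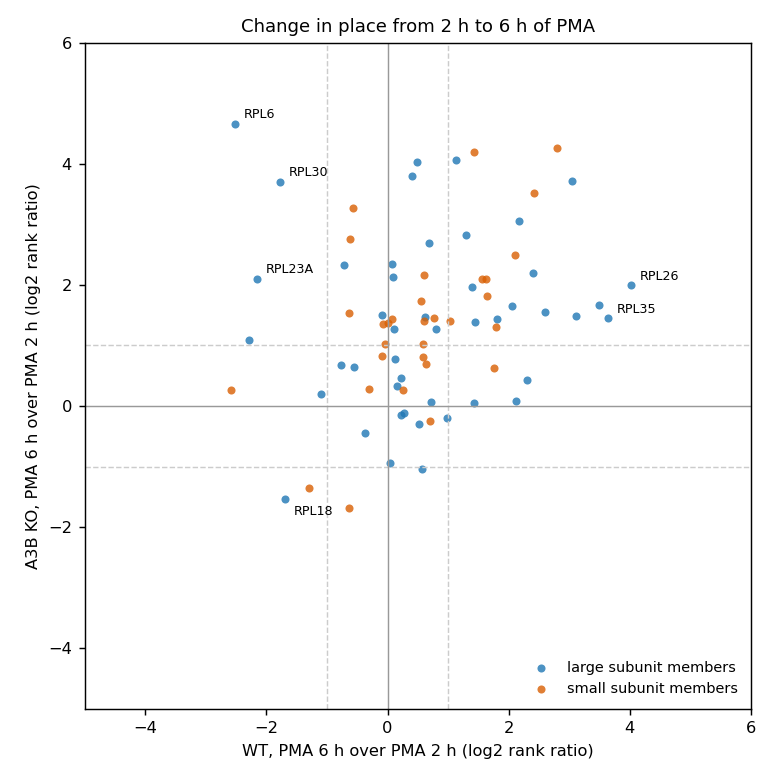
Change in place from PMA 2 h to PMA 6 h (log2) of each member in WT (x axis) and A3B KO (y axis), one point per member, with some of those farthest apart or falling in both lines labelled. RPL6, RPL30 and RPL23A lie at the upper left (lower in WT, higher in A3B KO), RPL26 and RPL35 at the right, and RPL18 at the lower left.

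The median differences of the members between A3B KO and WT were small beside their falls at 2 h. In DMSO, 13 of 81 members were at least 2-fold higher in place in A3B KO and 7 lower, median 0.14, against 13.1% and 13.0% of all genes. At PMA 2 h, 10 of 78 were higher and 17 lower, median -0.16, against 13.5% and 13.8%. At PMA 6 h, 26 of 81 were higher and 9 lower, median 0.50, against 13.2% and 13.3%. Which time was farthest apart turned with the processing: ranked by −log10 q the medians were -0.36 at 2 h and 0.23 at 6 h, with windows within 2 kb of the start only -0.36 and 0.24, and within 1 kb -0.34 and 0.11. Of the 77 members ranked at all 3 times, 15 were higher in A3B KO each time and 11 lower each time, near the 12.7% and 13.1% of all 11469 genes. RPL8 had the lowest value in DMSO (-2.88) and RPS13 the highest (2.94). RPL24 was higher in A3B KO by 3.97 at 2 h and 3.96 at 6 h, and by 0.65 in DMSO: its folds were 10.7, 6.83 and 7.59 in WT and 12.4, 15.7 and 13.0 in A3B KO. RPL28 likewise had 11.6, 6.84 and 11.0 in WT and 14.4, 15.4 and 14.0 in A3B KO. For both, the lines were close in DMSO and apart at 2 h, where WT was low.

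RPL6, a large subunit protein, showed the widest gap at 6 h. It had 21.1, 11.8 and 10.2 in WT and 23.1, 9.80 and 23.7 in A3B KO, so that it was 5.10 higher in A3B KO at 6 h. Its highest window was 902 to 1080 bp after the start in 5 of the lists, but in WT PMA 6 h it lay upstream of the canonical start (at -7850 bp), within the longer annotated span of RPL6 and within 2 kb of the start of PTPN11. RPL30 had 23.3, 11.1 and 10.8 in WT and 22.8, 9.76 and 17.7 in A3B KO, with all 6 highest windows 233 to 275 bp after the start. RPL30 was 3.80 higher in A3B KO at 6 h. RPS6, the 40S protein phosphorylated by S6 kinase, had 24.7, 11.3 and 16.5 in WT and 24.2, 11.9 and 31.0 in A3B KO. It was alike in both lines until 2 h and at least 2-fold higher in place in A3B KO at 6 h. The members lowest in A3B KO at 6 h were RPL13 (-2.76; folds 12.5 in WT and 7.07 in A3B KO), RPL35 (-2.19), RPL23 (-2.09), RPL22 (-1.84) and RPL13A (-1.83). Since each line is 1 library a time, differences between the lines and between libraries cannot be told apart.

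Large and small subunit genes had overlapping values throughout. Their median folds in WT were 15.8 and 18.2 in DMSO, 10.0 and 10.2 at PMA 2 h and 12.5 and 12.0 at 6 h. In A3B KO they were 16.9 and 17.5, 10.4 and 9.68, and 13.9 and 13.2. At 2 h the large subunit median change was -1.83 in WT and -2.18 in A3B KO, and the small subunit one -2.21 and -2.02, so that the order of the subunits differed between the lines. In WT 34 of 49 large and 19 of 31 small subunit members fell, and in A3B KO 34 of 48 and 25 of 32. From 2 h to 6 h the medians were 0.54 and 0.59 in WT and 1.41 and 1.39 in A3B KO. In each pair the ranges of the subunits overlapped widely, for example -4.68 to 0.73 for large and -5.20 to 2.11 for small subunit members at 2 h in WT. At 6 h in A3B KO over WT, 26 of 32 small subunit members were higher and 27 of 49 large subunit members, with medians of 0.57 and 0.39. Of all 14531 ranked genes 7208 were higher, so the large subunit count was nearer to that share.

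The highest windows of the members lay closer to the start than those of all genes, and most were in introns, as over all genes. In WT DMSO the highest window of 37 of 82 members had its summit in the first 1 kb of the transcript (45.1%), against 12.1% of all genes. Of other genes in the first 10% of the list, 413 of 1337 had it there. The median distance from the start was 1130 bp against 7755 bp. The members' transcripts are shorter, with a median span of 4748 bp against 22913 bp in all genes. The first 1 kb is thus a larger part of them, and distances were not scaled to length. By annotation 59 were in introns (72.0%, against 67.1% of all genes) and 15 in exons (18.3% against 11.6%). Another 4 were upstream (4.88% against 17.0%) and 4 past the transcript end (4.88% against 4.34%). Of the windows inside transcripts, 20.3% of the members' were in exons, which make up 26.4% of their span. Over all genes 14.8% were, and exons make up 4.99% of the span. In A3B KO DMSO 38 of 82 were in the first 1 kb (46.3%) and none upstream. Of the highest WT DMSO windows of the members, 77 of 82 (93.9%) were overlapped by a window of the PMA 2 h list and 80 of 82 (97.6%) by one of the 6 h list. Over the highest windows of all genes the shares were 66.2% and 77.7%, and over those of other genes in the first 10% of the list 92.1% and 97.5%, so members were like other high genes in this.

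The fall at 2 h was alike in members with the highest window in the first 1 kb and in the rest of the transcript. In WT, the 2 h median was -2.30 for the 37 members with a highest DMSO window in the first 1 kb and -2.21 for the 35 ranked with it in the rest of the transcript. It was -0.55 for the 4 past the end and 0.16 for the 4 upstream. In A3B KO by the same WT classes it was -2.39, -2.30, -0.88 and -0.08. The 4 upstream were RPL9, RPL10, RPL39L and RPS15A, with DMSO folds of 2.92 to 7.06, and the 4 past the end were RPL37A, RPS27L, RPS29 and RPSA, with 6.93 to 43.7, so the former started from low places. Sorted by the place of the highest A3B KO DMSO window, where no member was upstream, the WT median was -1.90 in the first 1 kb and -2.23 in the rest of the transcript. The highest RPL10 windows lay upstream (at -2719 bp) in WT DMSO and, in the other 5 lists, past the transcript end within DNASE1L1.

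**Figure D5:**
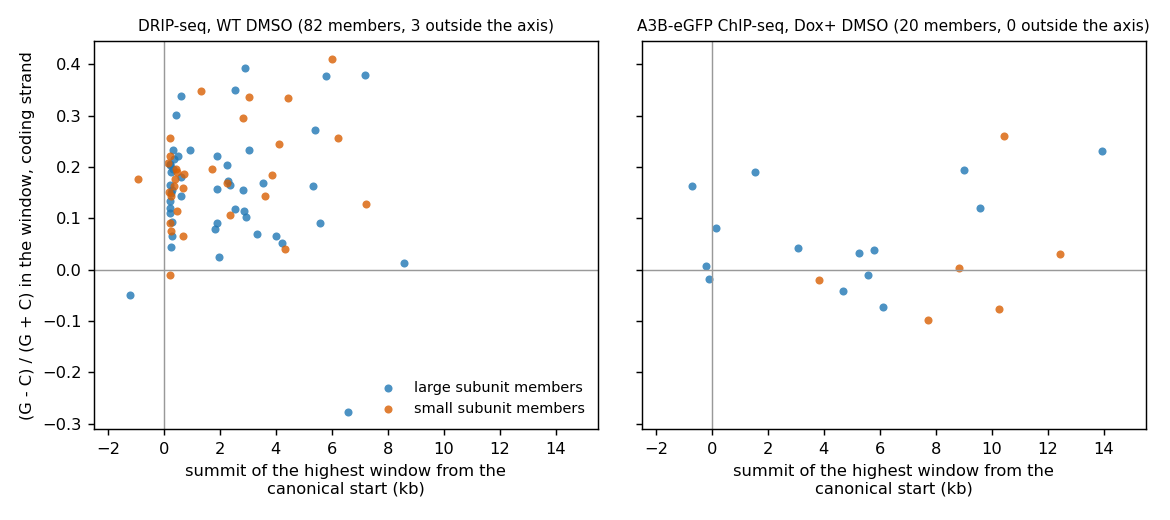
Distance of the summit of each member's highest window from the start of the canonical transcript (kb, x axis) against the G minus C skew of that 500 bp window on the coding strand (y axis), for WT DMSO DRIP-seq (82 members, 3 outside the axis) and Dox+ DMSO A3B-eGFP (20 members). Most DRIP points lie above 0 at every distance (78 of 82), while A3B-eGFP points lie farther from the start.

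The members' windows were rich in G on the coding strand wherever they lay, a measure added after the data were seen. The skew, (G-C)/(G+C) over the 500 bp, was above 0 in 78 of 82 members in WT DMSO (95.1%) and 57.2% of all genes, with medians of 0.16 and 0.03. In the first 1 kb this held for 97.3% of members, 84.3% of all genes and 87.9% of other genes in the first 10% of the list. Past the first 1 kb it held for 95.1% of members (39 of 41), 56.1% of all genes and 61.4% of other high genes, so the gap was widest there. The members' windows held a median of 11.5 runs of 3 or more G, those of all genes 7 and those of other genes in the first 10% of the list 11. In the first 1 kb the medians were 15, 16 and 17, so in G runs members did not stand above other high genes. Across the 6 lists the share of members above 0 was 88.8% to 95.1%.

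The members lie on 22 chromosomes, with 12 on chromosome 19, 9 on chromosome 3 and 6 on chromosome 17. Among the chromosomes with at least 4 members, the 2 h median in WT ran from -2.96 (chromosome 8, 4 ranked) to -0.21 (chromosome 5, 4 ranked), and in A3B KO from -3.64 (chromosome 9, 4 ranked) to -0.96 (chromosome 2, 4 ranked). In A3B KO chromosome 5 was at -2.02, so the lines did not share that extreme. The 28 members that host small nucleolar RNA genes in their introns had 2 h medians of -2.38 in WT and -2.41 in A3B KO (27 ranked in each), and the others -1.70 and -2.13 (53 ranked). The 24 members with another protein-coding start within 2 kb had -1.84 and -2.45, and the others -1.87 and -1.92; the highest WT DMSO window of 17 members lay within 2 kb of another start and cannot be assigned to 1 gene.

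A3B-eGFP windows were present at fewer members than DRIP windows, and few of the members' highest DRIP windows were overlapped by one. In the Dox- DMSO list 0 of 86 members had a window, against 1.64% of all genes. In Dox+ DMSO 20 members had one (23.3%), against 9.64% of all genes, and in Dox+ PMA 2 h 13 (15.1%), against 7.78%. These counts rest on weak windows and on windows far from the start. At a −log10 q of at least 5 they were 13 and 4, against 5.19% and 4.41% of all genes. With equal list lengths 17 and 4 had one, against 6.99% and 4.62%, and with windows within 2 kb of the start only 6 and 5, against 5.02% and 3.97%. RPL10, RPL27, RPL27A, RPL28, RPL31, RPL37, RPS24, RPS3 and RPS9 had windows in both, 11 members in Dox+ DMSO alone and 4 in Dox+ PMA 2 h alone. By subunit, 14 of 52 large and 6 of 34 small subunit members had one in Dox+ DMSO, and 8 and 5 in Dox+ PMA 2 h. The highest folds were 6.19 at RPL27A, 6.16 at RPS24, 5.80 at RPS23, 5.60 at RPL22L1 and 5.23 at RPS3, all in Dox+ DMSO. In that list the highest window lay past the transcript end in 4 of the 6 small and 4 of the 14 large subunit members. In Dox+ PMA 2 h the highest was 3.92 at RPL10, and RPL27A, RPS24 and RPS3 had 2.66, 3.20 and 3.18.

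By median distance the highest window of each member lay farther from the start than that of all genes, and some were near the transcript end. In Dox+ PMA 2 h the medians of the highest windows were 5069 bp in members and 2888 bp over all genes. Counting all windows, members were farther in Dox+ DMSO (6309 against 3791 bp) but nearer in Dox+ PMA 2 h (2986 against 7722 bp). Within 1 kb of that end were 9 of the 20 highest windows in Dox+ DMSO, against 185 of 1932 over all genes. In Dox+ PMA 2 h it was 4 of 13, against 122 of 1559. A window past the end of the canonical transcript still lies in the annotated gene or within 2 kb of its start. In Dox+ DMSO the highest window was in an exon for 8 of 20 members, past the transcript end for 8, upstream for 3 and in an intron for 1. Over all genes the shares were 28.0%, 6.83%, 28.7% and 36.5%. Of the windows inside transcripts, 88.9% of the members' were in exons, which make up 51.1% of their span. Over all genes 43.3% were, and exons make up 6.30% of the span. The median distance from the start was 5688 bp, against 883 bp over all genes. In Dox+ PMA 2 h the counts were 6, 4, 2 and 1 of 13. Of the 33 member windows of Dox+ DMSO, 18 (54.5%) were overlapped by a WT DMSO DRIP window, against 46.7% of the windows of all genes. Of the 82 highest WT DMSO DRIP windows 4 (4.88%) were overlapped by a Dox+ DMSO A3B-eGFP window, against 3.22% for all genes and 13.8% for other genes in the first 10% of the DRIP list. The 24 members with an A3B-eGFP window in either list had a median highest DRIP fold of 24.5 in WT DMSO, and the other 58 with a DRIP window 15.1. Their 2 h medians were -1.61 in WT and -1.79 in A3B KO, against -1.94 and -2.43 for the members without. RPS6 and RPS20 had A3B-eGFP windows in Dox+ PMA 2 h alone, 141 and 72 bp after the start.

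Related gene lists were read the same way. Of 17 other genes with TOP mRNAs, such as elongation and initiation factors, 7 fell and 1 rose at 2 h in WT, median -0.73, and 11 fell and 1 rose in A3B KO, median -1.33. Of 18 ribosome biogenesis genes, 9 of 16 ranked fell and 5 rose in WT, median -1.15, and 8 of 15 fell and 1 rose in A3B KO, median -1.12. Of the 78 mitochondrial ribosomal protein genes, whose products serve a separate ribosome, 10 of 50 ranked fell and 6 rose in WT, median -0.03, and 15 of 61 fell and 2 rose in A3B KO, median -0.43. These changes leave out mitochondrial genes without a window at 2 h: 18 of the 68 that had one in WT DMSO. In the knockout line 12 of 73 dropped out likewise. Over all genes 1356 of 14003 WT ones dropped out, and 1119 of 14352 knockout ones. Among members it was 2 of 82 for each line. Mitochondrial genes with a window at 2 h alone numbered 2 (WT) and 1 (A3B KO). The mitochondrial median highest fold in WT DMSO was 5.70, close to the 5.94 of all genes. It was 11.8 for the TOP genes and 7.60 for the biogenesis genes. From 2 h to 6 h the TOP genes had medians of -0.01 in WT and 0.23 in A3B KO, the biogenesis genes 0.31 and 0.94, and the mitochondrial genes -0.05 and 0.05.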

How the data were processed

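The authors trimmed reads (cutadapt 1.13), aligned them to hg38 (STAR 2.6.1d), handled them with SAMtools 1.3.1, Picard and bedtools 2.29.2, and called peaks with MACS2 2.2.6 (versions from the submitters' processing notes) at a q threshold of 0.01, each precipitate against its own input. Their deposited lists hold 500 bp windows around summits with a pileup signal, a fold ratio over background, and −log10 p and −log10 q. Input libraries appear in the labels only and were not analysed here. Depths of sequencing are not stated in the sources used.

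Windows were assigned to GENCODE 44 genes with Python 3.11.15 and pandas 2.3.3 when the midpoint was in the gene or within 2 kb of its start. Mitochondrial entries were set aside. Genes were ranked by highest fold ratio, and 9 pairs of lists were compared. The assignment, ranking and calls were tested on simulated lists and against bedtools 2.31.1. Members and gene lists were chosen with earlier results of these data known. Named members were the 8 with the best median place, the 5 largest falls and gains of each pair, those with an A3B-eGFP window, those with no DRIP window, and those with a set role, 70 in all, and the text names a choice of them; a few members are counted but not reported here by name. The comparison with other genes in the first 10% of a list, and the skew of windows, were added after the data were seen. Alternatives were ranks by pileup or −log10 q, windows within 2 kb or 1 kb of the start, a −log10 q of at least 5, and equal list lengths. No fold or rank has an error estimate, since there was 1 library per condition.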

Additional observations from a re-analysis of the deposited data

Results flagged for a closer look

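RPS6, RPL6, RPL30 and RPL23A moved in opposite directions in the 2 lines by at least 2-fold in place under the same contrast. Each value is the log2 change in place, each line is 1 library per time, and the difference was not tested. From DMSO to PMA 6 h, RPS6 changed by -1.045 in WT and by 1.373 in A3B KO. From PMA 2 h to PMA 6 h, RPL6 changed by -2.52 in WT and 4.659 in A3B KO, where the highest WT window at 6 h lay within 2 kb of the start of PTPN11. Over the same step RPL30 changed by -1.773 and 3.701 and RPL23A by -2.153 and 2.1. The highest RPL23A window in WT was not the same at both times, with 59.6% GC and 18 G runs at 2 h and 47.8% and 10 at 6 h. In A3B KO it had 57.8% and 58.8% GC, with 17 G runs each. In these 4 genes the A3B KO value was the positive one.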

How the results depend on the processing

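Of 189 values recomputed under the alternatives, 142 stayed within 1.5 times of the value reported and 47 moved, of which 1, given with the 1 kb setting, also changed sign. The PMA 2 h medians kept their sign in all 6 alternatives (WT -1.94 to -1.29, A3B KO -2.15 to -1.47), as did the 6 h over 2 h ones (WT 0.55 to 0.77, A3B KO 1.36 to 1.44). The cause of the moves was not tested, except that fewer windows enter the start-only and stricter settings.

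Ranked by pileup, the median was -0.53 at 6 h over DMSO in WT and 0.28 in A3B KO over WT at 6 h. By pileup 1 member rose at 2 h in A3B KO, 4 fell in WT and 1 in A3B KO from 2 h to 6 h, 2 were lower in A3B KO in DMSO, 9 lower and 4 higher at 2 h, and 5 lower at 6 h.

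Ranked by −log10 q, the medians were -0.62 (WT, 6 h over DMSO), -0.36 (A3B KO over WT, 2 h) and 0.23 (6 h). By it 3 members fell in WT and 1 in A3B KO from 2 h to 6 h, 4 were lower and 7 higher in A3B KO in DMSO, and 5 higher at 2 h.

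With windows within 2 kb of the start only, 6 members had A3B-eGFP windows in Dox+ DMSO and 5 in Dox+ PMA 2 h. At 2 h 3 rose in WT and 1 in A3B KO, and 25 fell at 6 h in WT. The 6 h medians were -0.45 in WT and -0.30 in A3B KO. From 2 h to 6 h 3 fell in WT and 2 in A3B KO. For A3B KO over WT, the median was -0.36 with 3 higher at 2 h, and 0.24 with 9 higher at 6 h.

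Within 1 kb, 35 of 56 members fell and 2 rose at 2 h in WT, and 38 of 60 fell in A3B KO. At 6 h 23 fell in WT, median -0.39, and 16 in A3B KO, and 2 fell from 2 h to 6 h in WT. For A3B KO over WT, the medians were -0.11 in DMSO (7 higher), -0.34 at 2 h (2 higher) and 0.11 at 6 h (10 higher), so the DMSO median, 0.14 in the report, changed sign.

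At a −log10 q of at least 5, 13 members had A3B-eGFP windows in Dox+ DMSO and 4 in Dox+ PMA 2 h, and the DMSO median of A3B KO over WT was 0.0835. With equal list lengths 4 had one in Dox+ PMA 2 h.

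Places depend on the other genes of a list, lists of longer length hold weaker windows, and the depth of each library is unknown, so a gene without a window is below a threshold that differs by list and is not shown to lack hybrids. Near-identical processed copies can draw or lose reads of members.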
